A study of Mus musculus with 18 samples.

Results

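The genes described here are 10 nuclear receptors of the mouse liver, taken by gene symbol from the gene count tables: Nr1i2 (the pregnane X receptor, PXR), Nr1i3 (the constitutive androstane receptor, CAR), Nr1h3 (liver X receptor alpha, LXRα), Nr1h4 (the farnesoid X receptor, FXR), Nr0b2 (the small heterodimer partner, SHP), Nr5a2 (liver receptor homolog 1, LRH-1), Hnf4a (hepatocyte nuclear factor 4 alpha), Ppara (peroxisome proliferator-activated receptor alpha), Rxra and Rxrb (the retinoid X receptors alpha and beta). They are 10 of the 21018 genes listed in at least 1 of the 3 tables, and each of the 3 tables held 10 of 10. The study prepared liver RNA of 6 male C57/B6J mice, 12 weeks old, with 3 library kits. Of these mice, 3 had been injected intraperitoneally with 20 µg/kg of interleukin-1β (IL-1β), a cytokine that sets off the acute-phase response of the liver, and 3 with saline, in both cases 4 h before the liver was taken. RNA of each mouse was divided among the kits, giving 18 libraries. Pico is a strand-specific, low-input kit for total RNA in which cDNA made from ribosomal RNA is cut by an enzyme, V4 is a low-input kit for poly(A) RNA that does not keep the strand, and TruSeq is a strand-specific kit for poly(A) RNA that served as the reference. The mice carried no genetic change named by the labels, and the liver was sampled whole. The kits also differed in the amount of RNA. TruSeq further differed from Pico and V4 in read length and sequencing machine and came from an earlier study. Kit and batch thus cannot be told apart.

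Nuclear receptors are transcription factors whose activity is set by small lipophilic molecules such as bile acids, oxysterols, fatty acids and drugs. In hepatocytes PXR and CAR control genes that clear drugs and bilirubin, FXR and LXRα sense bile acids and oxysterols, and PPARα drives fatty acid oxidation. Each of these binds DNA with a retinoid X receptor as its partner, usually at repeats of the core letters AGGTCA. HNF4α pairs with itself and holds up the hepatocyte program, LRH-1 binds DNA as a single molecule and activates bile acid synthesis genes, and SHP has no DNA-binding domain and represses other receptors, LRH-1 among them. Inflammation is known to lower many of the hepatic transporters and enzymes that these receptors control.

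Promoter sequences are shown for the 3 genes whose counts were called lower in each kit and for Hnf4a, which was called higher in 2 of the 3, so that the region in front of each gene can be read beside its response. All 10 of 10 genes matched the RefSeq promoter table (build GRCm38.p6), with 15 windows in all, since some genes have more than 1 start. Each line gives the 250 bases before the annotated start, 5′ to 3′ on the strand of the gene, and capitals mark every match to a motif searched on both strands. The motifs were the receptor core AGGTCA, direct repeats of that core 1, 4 or 5 bases apart, the HNF4 motif, NF-κB as GGGA, 4 bases of any kind and CC, the C/EBP motif and AP-1 as TGANTCA. For Nr1i3 the stretch is chr1:171213720-171213969, plus strand. For Nr0b2 it is chr4:133553126-133553375, plus strand. For Nr1h4 it is chr10:89506659-89506908, minus strand. For Hnf4a it is the downstream one of the starts listed, chr2:163546905-163547154, plus strand.
Nr1i3: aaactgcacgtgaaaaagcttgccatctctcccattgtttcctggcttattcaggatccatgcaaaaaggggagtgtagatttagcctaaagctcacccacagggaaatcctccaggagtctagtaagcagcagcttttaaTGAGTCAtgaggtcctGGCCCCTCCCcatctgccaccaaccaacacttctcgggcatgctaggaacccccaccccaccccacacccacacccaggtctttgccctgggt
Nr0b2: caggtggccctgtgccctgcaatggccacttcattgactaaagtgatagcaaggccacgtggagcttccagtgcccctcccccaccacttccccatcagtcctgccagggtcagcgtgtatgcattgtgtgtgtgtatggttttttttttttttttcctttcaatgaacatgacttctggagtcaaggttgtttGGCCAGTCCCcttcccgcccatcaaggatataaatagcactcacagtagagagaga
Nr1h4: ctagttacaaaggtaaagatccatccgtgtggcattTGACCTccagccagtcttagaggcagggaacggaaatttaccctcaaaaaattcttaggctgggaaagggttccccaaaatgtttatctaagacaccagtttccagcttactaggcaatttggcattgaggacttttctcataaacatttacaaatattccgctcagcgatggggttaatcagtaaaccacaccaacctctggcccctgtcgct
Hnf4a: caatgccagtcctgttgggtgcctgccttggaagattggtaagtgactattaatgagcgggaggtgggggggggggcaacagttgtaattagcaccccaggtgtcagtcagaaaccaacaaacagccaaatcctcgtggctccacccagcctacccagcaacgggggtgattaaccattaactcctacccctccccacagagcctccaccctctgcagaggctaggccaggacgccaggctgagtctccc
In the Nr1i3 sequence the capitals mark an AP-1 match that begins 109 bases before the start and an NF-κB match that begins 93 bases before it. The Nr0b2 sequence held an NF-κB match 56 bases before the start, the Nr1h4 sequence held the receptor core 214 bases before the start, and the Hnf4a sequence held no match. Among the 10 genes, NF-κB matches were found in 3, the receptor core in 3, AP-1 in 1 and C/EBP in 1, and neither the direct repeats nor the HNF4 motif in any of the 15 windows of 300 bases. Of all 32851 promoter windows in the table, 20.7% held the NF-κB letters, 16.3% the receptor core, 7.81% AP-1, 10.8% C/EBP and 0.475% HNF4, while the repeats 1, 4 and 5 bases apart were in 0.0396%, 0.0152% and 0.00913%. These matches are a description of letters in these windows.

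The values are whole reads assigned to genes after the authors had resampled the libraries of a kit to about equal depth. Total counts were between 4024632 and 4134070 in the Pico libraries, 12013453 and 12352473 in V4, and 12348864 and 12858237 in TruSeq. Levels are given as CPM (counts per 1000000 counted reads of a library), and the kits were normalized separately, so that a level in one kit set beside a level in another is a description. Values of single libraries are listed in the order of mice ILB_9579, ILB_9582 and ILB_9583 for IL-1β and UNT_9574, UNT_9575 and UNT_9576 for saline, as the labels name them. The samples behaved as liver: 8 hepatocyte markers summed to between 53000 and 109400 CPM over the 18 libraries. Of 8 acute-phase genes 8 were called higher in every kit. In bulk tissue a fall in a transcript can come from fewer cells of a type or less RNA per cell, which cannot be told apart. Marker genes of other cells moved with the treatment. Neutrophil markers summed to between 41.0 and 90.9 CPM after IL-1β and to between 0.971 and 6.56 CPM after saline over the kits. Of these, 6 of 6 listed markers were called higher with Pico, 4 of 6 with V4 and 6 of 7 with TruSeq. Kupffer cell markers went the other way, with 4 of 8 called lower by Pico, 2 by V4 and 5 by TruSeq, where 1 was higher. The part of these shifts in the receptor values was not tested.

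**Figure D1:**
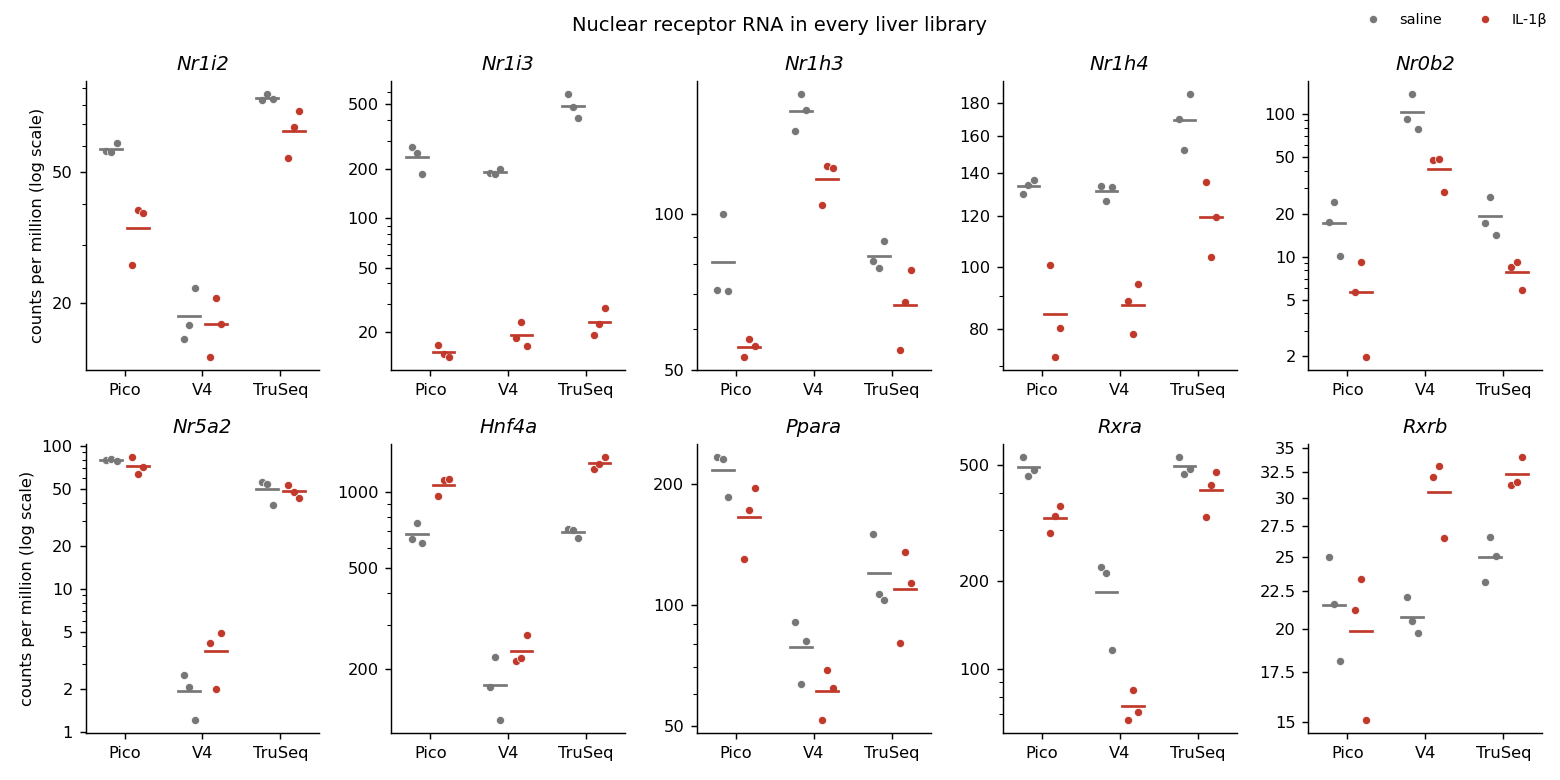
CPM (log axis) of each of the 10 receptors in each of the 18 libraries, by kit and treatment; each point is 1 library and the bar is the mean of 3 mice. The libraries of IL-1β mice lie far below those of saline mice for Nr1i3 in all 3 kits, and above them for Hnf4a in Pico and TruSeq.

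In each kit the response to IL-1β was tested with limma-voom over all genes of the table, with Benjamini-Hochberg adjustment, and a gene was called at an adjusted p of at most 0.05. In Pico 7 of the 10 receptors were called, 1 higher and 6 lower, where 17.6% of 18108 genes were called, 6.78% higher and 10.8% lower. In V4 4 were called, all of them lower, where 11% of 18051 genes were called, 3.6% higher and 7.41% lower. In TruSeq 5 were called, 2 higher and 3 lower, where 34.1% of 19424 genes were called, 12.3% higher and 21.8% lower. The receptors had mean counts of at least 34.0 in every kit, and among genes whose mean count was 20 or more the called share was 28% (Pico), 16.1% (V4) and 48.7% (TruSeq). The TruSeq count of 5 of 10 was thus close to the share among genes of such counts. The median log2 fold change of the 10 receptors was -0.55 (Pico), -0.40 (V4) and -0.30 (TruSeq), beside -0.12, -0.22 and -0.17 over all genes tested. Scaling by trimmed mean of M values (TMM) in place of the library totals moved the median of all genes up by 0.13 (Pico), 0.17 (V4) and 0.16 (TruSeq). The share of calls that were higher rose with it, in Pico from 38.6% to 52.9%, in V4 from 32.7% to 49.7%, and in TruSeq from 36.0% to 50.9%. Under TMM the receptors called in Pico numbered 1 higher and 5 lower, those in V4 0 and 3, and those in TruSeq 2 and 2. The share of all genes called under TMM is not reported here, so these counts cannot be set beside a background. Nr1i3 and Nr0b2 were the receptors called lower in every kit under both scalings.

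**Figure D2:**
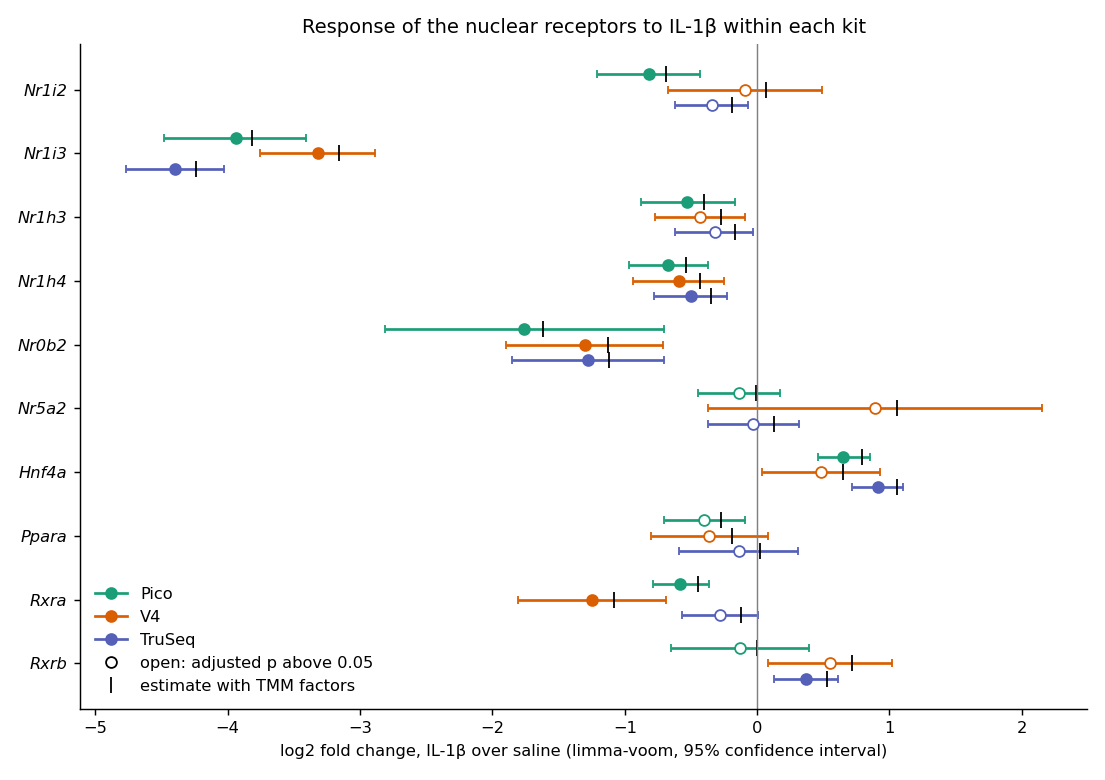
Log2 fold change of IL-1β against saline for each of the 10 receptors in each kit, from the limma-voom fit with library totals; points are estimates, lines are 95% confidence intervals, and filled points were called at an adjusted p of at most 0.05. Nr1i3 stands at -3.94, -3.32 and -4.40 in Pico, V4 and TruSeq, and Hnf4a is above 0 in each kit.

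Among the receptors for drugs and other foreign compounds, Nr1i3 (mm9 chr1:173144101-173150832, plus strand), which encodes CAR, fell further than any other of the 10 receptors in every kit. In TruSeq its levels were 19.2, 22.4 and 28.1 CPM in the IL-1β mice and 578, 483 and 411 CPM in the saline mice. In Pico they were 16.8, 14.7 and 14.1 CPM after IL-1β and 276, 252 and 187 CPM after saline. The V4 levels were 18.6, 23.1 and 16.4 CPM after IL-1β and 190, 186 and 202 CPM after saline. The groups were far apart in each kit, with every saline library above every IL-1β library. The log2 fold change was -4.40 (SE 0.17, limma-voom adjusted p = 4.826e-07) in TruSeq, -3.94 (SE 0.25, adjusted p = 1.716e-08) in Pico and -3.32 (SE 0.20, adjusted p = 3.732e-06) in V4. As ratios of mean CPM these are 21.1-fold, 15.7-fold and 9.94-fold lower levels. The call held in 12 of 12 alternative fits in each kit. Exons of Nr1i3 share 2268 bases with those of Tomm40l, a gene of the mitochondrial import family on the opposite strand, and V4 does not keep the strand. Counts given to Tomm40l in V4 were between 59 and 111 after IL-1β and between 76 and 116 after saline, beside 198 to 279 and 2249 to 2494 for Nr1i3. The part of the shared bases in the V4 values of Nr1i3 was not tested.

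Nr1i2 (chr16:38248409-38294910, minus strand) encodes PXR, the sensor of drugs and secondary bile acids that induces Cyp3a enzymes. In Pico its levels were 25.9, 38.3 and 37.4 CPM after IL-1β and 57.8, 57.5 and 61.4 CPM after saline. The TruSeq levels were 55.4, 68.4 and 76.8 CPM after IL-1β and 82.8, 86.4 and 83.4 CPM after saline. With V4 the levels were 13.6, 20.6 and 17.2 CPM after IL-1β and 15.5, 17.0 and 22.1 CPM after saline. The groups did not overlap in Pico and TruSeq and overlapped in V4, where the level was low. Nr1i2 fell in Pico, with a log2 fold change of -0.82 (SE 0.19, limma-voom adjusted p = 0.005023), and was not called in TruSeq (-0.34, 95% confidence interval -0.62 to -0.07, adjusted p = 0.05676) or in V4 (-0.09, -0.67 to 0.49, adjusted p = 0.8606). Without IL-1β mouse ILB_9583 the TruSeq adjusted p was 0.02528, and under TMM the TruSeq estimate was -0.19 (limma-voom adjusted p = 0.3). Of 12 alternative fits in TruSeq 2 called Nr1i2.

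Among the receptors for bile acids and sterols, Nr1h4 (chr10:88916979-88996330, minus strand), which encodes FXR, the bile acid sensor, was called lower in every kit by a smaller amount. In Pico its levels were 101, 72.3 and 80.2 CPM after IL-1β and 130, 134 and 137 CPM after saline. V4 gave 88.4, 78.5 and 94.2 CPM after IL-1β and 134, 127 and 133 CPM after saline, and in TruSeq 136, 104 and 119 CPM against 170, 152 and 186 CPM. The groups did not overlap in any kit, and the spread was wider after IL-1β than after saline in Pico and V4. The log2 fold change was -0.67 (SE 0.14, limma-voom adjusted p = 0.002854) in Pico, -0.59 (SE 0.15, adjusted p = 0.03242) in V4 and -0.50 (SE 0.12, adjusted p = 0.01042) in TruSeq. The fall was 1.58-fold, 1.51-fold and 1.42-fold in these kits. Under TMM it was -0.43 in V4 and -0.35 in TruSeq, with adjusted p of 0.1271 and 0.0569, so that of the kits Pico kept the call. Leaving out 1 mouse ended the V4 call for each of 5 mice, UNT_9574, UNT_9575, ILB_9579, ILB_9582 and ILB_9583, with adjusted p between 0.06862 and 0.1255, and the TruSeq call for 3 mice, UNT_9574, UNT_9576 and ILB_9582, with adjusted p between 0.0505 and 0.05345.

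Nr0b2 (chr4:133109291-133112451, plus strand) encodes SHP, the corepressor that FXR induces to restrain bile acid synthesis. In V4, where it was counted most, its levels were 47.3, 48.4 and 28.4 CPM after IL-1β and 92.0, 137 and 77.9 CPM after saline. TruSeq gave 8.45, 9.15 and 5.80 CPM after IL-1β and 17.3, 26.3 and 14.2 CPM after saline. In Pico they were 5.68, 9.19 and 1.98 CPM after IL-1β and 17.4, 24.3 and 10.2 CPM after saline. The groups were apart in each kit, although in Pico the highest IL-1β library came close to the lowest saline one. Nr0b2 fell in each kit, with a log2 fold change of -1.76 (SE 0.50, limma-voom adjusted p = 0.02095) in Pico, -1.30 (SE 0.27, adjusted p = 0.01166) in V4 and -1.28 (SE 0.26, adjusted p = 0.00413) in TruSeq. Mean levels were 3.07-fold, 2.47-fold and 2.47-fold lower. The TruSeq call held in 12 of 12 alternative fits. The Pico call was lost without each of mice UNT_9574, UNT_9575, ILB_9579, ILB_9582 and ILB_9583 (adjusted p between 0.08025 and 0.1723) and in 1 joint fit of 18 libraries without (0.1108) and with (0.08415) the mouse as a block, and the V4 call without UNT_9575 (0.05654) or ILB_9583 (0.06161). In all 3 kits mouse UNT_9575 had the highest saline level and mouse ILB_9583 the lowest IL-1β level.

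Nr5a2 (chr1:138740161-138857004, minus strand), which encodes LRH-1, the activator of Cyp7a1 and Cyp8b1 that SHP represses, was not called in any kit. Its levels in Pico were 83.8, 63.4 and 71.3 CPM after IL-1β and 79.9, 81.1 and 78.1 CPM after saline. The TruSeq libraries held 53.1, 47.7 and 43.5 CPM after IL-1β and 56.3, 54.0 and 38.4 CPM after saline, and in V4 4.19, 1.99 and 4.89 CPM against 2.50, 2.07 and 1.21 CPM. The groups overlapped in every kit. The 95% confidence interval of the log2 fold change was -0.45 to 0.17 in Pico and -0.37 to 0.32 in TruSeq, and ran from -0.37 to 2.15 in V4. The estimate in TruSeq was -0.03 with library totals and 0.13 with TMM, so that its direction depended on the scaling.

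Nr1h3 (chr2:91024218-91042991, minus strand) encodes LXRα, the oxysterol sensor that induces sterol export and fatty acid synthesis genes. In Pico its levels were 52.9, 57.4 and 55.5 CPM after IL-1β and 71.3, 99.8 and 70.9 CPM after saline. The V4 libraries held 104, 124 and 123 CPM after IL-1β and 144, 170 and 158 CPM after saline. The TruSeq levels were 54.6, 67.6 and 77.9 CPM after IL-1β and 81.1, 78.5 and 88.6 CPM after saline. The groups did not overlap in any kit, but in TruSeq they were separated by less than 1 CPM. Nr1h3 was called lower in Pico (-0.53, SE 0.17, limma-voom adjusted p = 0.03909), and not in V4 (-0.43, adjusted p = 0.1031) or TruSeq (-0.32, adjusted p = 0.09108). The Pico call was lost under TMM (adjusted p = 0.1162) and without each of the 6 mice in turn (adjusted p between 0.05127 and 0.1522). The TruSeq adjusted p was 0.03454 without mouse ILB_9583, and under TMM the TruSeq estimate was -0.17 (limma-voom adjusted p = 0.401). Of 12 alternative fits in TruSeq 1 called Nr1h3. In the joint fit of 18 libraries Nr1h3 was called lower in V4, without (limma-voom adjusted p = 0.01338) and with (0.0107) the mouse as a block, and not in Pico (0.06961 and 0.06613). That fit shares a variance per gene over kits of unequal spread.

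Hnf4a (chr2:163332544-163398646, plus strand), whose product maintains hepatocyte identity, rose in Pico and TruSeq. In TruSeq its levels were 1238, 1293 and 1378 CPM after IL-1β and 713, 711 and 661 CPM after saline. In Pico they were 966, 1120.0 and 1128 CPM after IL-1β and 656, 757 and 631 CPM after saline. The V4 levels were 216, 222 and 273 CPM after IL-1β and 170, 223 and 126 CPM after saline. The groups were well apart in Pico and TruSeq, while in V4 the saline library of mouse UNT_9575 lay among the IL-1β libraries. The log2 fold change was 0.91 (SE 0.08, limma-voom adjusted p = 5.089e-05) in TruSeq, 0.65 (SE 0.09, adjusted p = 7.598e-05) in Pico and 0.48 (SE 0.20, 95% confidence interval 0.04 to 0.93, adjusted p = 0.1656) in V4. Levels were 1.87-fold and 1.57-fold higher in TruSeq and Pico, and both calls held in 12 of 12 alternative fits. Hnf4a was the receptor that rose most in TruSeq and the one that was called higher in Pico.

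Ppara (chr15:85565413-85633249, plus strand), which encodes the fatty acid sensor PPARα, was not called in any kit. In Pico its levels were 130, 173 and 196 CPM after IL-1β and 234, 231 and 186 CPM after saline. With V4 the levels were 51.8, 69.0 and 62.3 CPM after IL-1β and 91.0, 63.7 and 81.4 CPM after saline, and in TruSeq 80.6, 136 and 114 CPM against 150, 107 and 103 CPM. Both treatments overlapped in each kit, and mouse ILB_9579 had the lowest IL-1β level in each. The log2 fold change was -0.40 (95% confidence interval -0.70 to -0.09, limma-voom adjusted p = 0.07165) in Pico, -0.36 (-0.80 to 0.08, adjusted p = 0.3007) in V4 and -0.14 (-0.59 to 0.31, adjusted p = 0.6172) in TruSeq. Under TMM the TruSeq estimate was 0.02.

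Rxra (chr2:27531960-27618477, plus strand) encodes RXRα, the main heterodimer partner in liver for PXR, CAR, FXR, LXRα and PPARα. In Pico its levels were 293, 333 and 361 CPM after IL-1β and 532, 457 and 481 CPM after saline. V4 gave 67.0, 84.9 and 71.3 CPM after IL-1β and 224, 213 and 116 CPM after saline, the last in mouse UNT_9576. TruSeq gave 333, 426 and 472 CPM after IL-1β and 533, 466 and 483 CPM after saline. The groups were apart in Pico and V4, whereas in TruSeq 1 IL-1β library lay above 1 saline library. Rxra fell in V4 by 1.25 on the log2 scale (SE 0.25, limma-voom adjusted p = 0.01062) and in Pico by 0.58 (SE 0.10, adjusted p = 0.0007604). In TruSeq the log2 fold change was -0.28 (95% confidence interval -0.57 to 0.01, adjusted p = 0.1288). The V4 call was lost without mouse UNT_9575 (adjusted p = 0.06438) or mouse ILB_9583 (0.05904), and the Pico call in the joint fit without the block (0.0547).

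Rxrb (chr17:34168757-34175338, plus strand) encodes RXRβ, a second retinoid X receptor. In TruSeq its levels were 31.2, 31.6 and 34.1 CPM after IL-1β and 23.2, 26.6 and 25.1 CPM after saline. The V4 libraries held 32.0, 33.2 and 26.5 CPM after IL-1β and 22.1, 20.5 and 19.8 CPM after saline, and in Pico 21.3, 23.4 and 15.1 CPM against 25.0, 21.6 and 18.1 CPM. The groups were apart in TruSeq and V4 and overlapped in Pico. Rxrb was called higher in TruSeq (0.37, SE 0.11, limma-voom adjusted p = 0.02298), and not in V4 (0.55, SE 0.21, adjusted p = 0.1325) or Pico (-0.13, 95% confidence interval -0.65 to 0.39, adjusted p = 0.7567). The TruSeq call was lost without mouse UNT_9574 (0.06369) or ILB_9583 (0.05468) and in a single fit of all 18 libraries (0.06216). In that single fit and with DESeq2, Rxrb and Hnf4a were called higher in V4 as well. The single fit shares a variance per gene over kits of unequal spread.

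Since a receptor and its partner were counted in the same library, their ratio does not depend on the library total. Ratios to Rxra were compared for Nr1i2, Nr1i3, Nr1h3, Nr1h4 and Ppara, and Rxra was compared with Rxrb, giving 18 ratios over the 3 kits. With 3 mice against 3 the two-sided exact permutation test cannot go below p = 0.1, and after adjustment over 18 ratios the smallest value was 0.225. The log2 ratio of Nr1i3 to Rxra in TruSeq was between -4.25 and -4.07 after IL-1β and between -0.23 and 0.12 after saline. The difference between the treatments was -4.12 in TruSeq, -3.38 in Pico and -2.07 in V4 (exact permutation p = 0.1 in each), and the groups did not overlap. The ratio of Rxra to Rxrb was lower after IL-1β by 1.81 in V4 and 0.65 in TruSeq on the log2 scale, with groups apart in both (exact permutation p = 0.1), and by 0.45 in Pico, where they overlapped (exact permutation p = 0.3). The other ratios to Rxra differed between treatments by at most 0.24 on the log2 scale in Pico and TruSeq, with overlapping groups. In V4, where Rxra fell most, the ratio to Rxra was higher after IL-1β by 1.17 for Nr1i2, 0.82 for Nr1h3 and 0.89 for Ppara, with the groups apart (exact permutation p = 0.1 in each), and by 0.66 for Nr1h4, with overlapping groups (exact permutation p = 0.2).

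**Figure D3:**
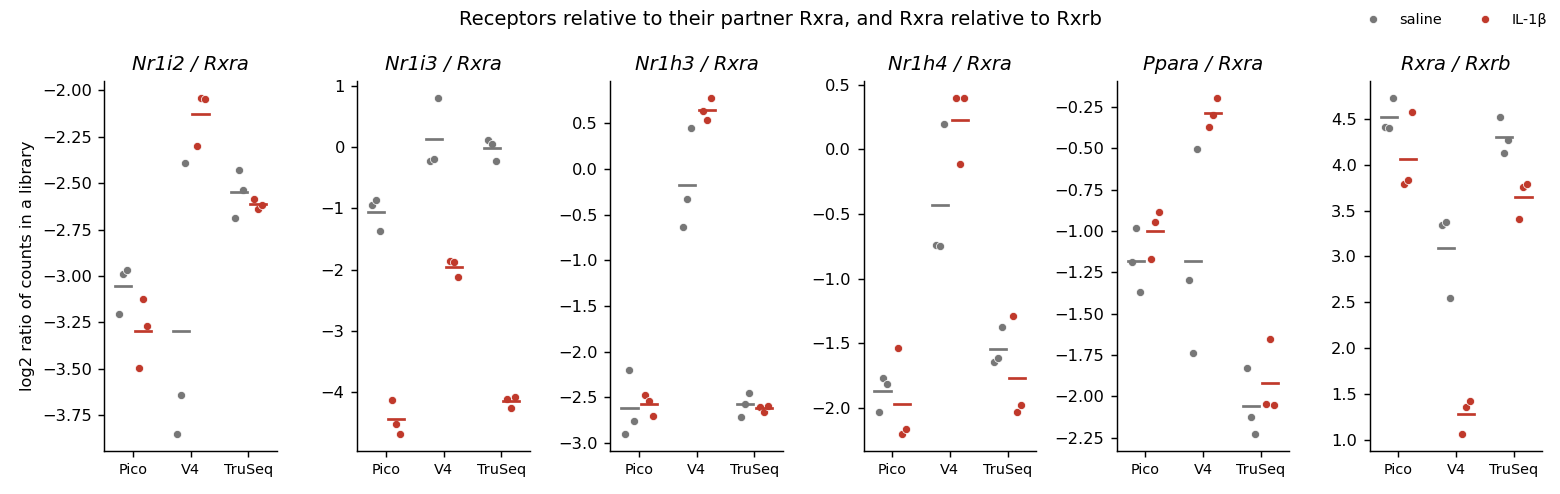
Log2 ratio of counts of 5 receptors to Rxra, and of Rxra to Rxrb, in each library, by kit and treatment; points are libraries and bars are means of 3 mice. The Nr1i3 to Rxra ratio falls from near 0 to near -4.14 in TruSeq, and the other ratios in Pico and TruSeq overlap between treatments except that of Rxra to Rxrb in TruSeq.

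Whether a kit gave another response than TruSeq was tested as the interaction of kit and treatment in limma-voom, over genes found in both tables. For Pico against TruSeq 0% of 17207 genes were called, and for V4 against TruSeq 0% of 17147, with 0 of the 10 receptors called in either. At an unadjusted p under 0.05, limma-voom gave 945 and 1090 genes, with 1 and 2 receptors among them. DESeq2 called 4 and 72 genes, edgeR 0 and 0, and limma-voom with the mouse as a block 0 and 10. The log2 fold change of Nr1i3 was less negative in V4 than in TruSeq by 1.08 (95% confidence interval 0.51 to 1.64, limma-voom adjusted p = 0.3175), and DESeq2 called this difference (1.13, adjusted p = 0.00935). The log2 fold change of Rxra differed by -0.97 in V4 from that in TruSeq (-1.61 to -0.33, limma-voom adjusted p = 0.4272). Without mouse UNT_9576, whose V4 saline library held 1430 Rxra counts where the other two held 2572 and 2686, the Rxra difference was -1.26 and was called (adjusted p = 0.02973). For Nr1i2 the interval of Pico minus TruSeq was -0.94 to -0.01, and for Hnf4a it was -0.51 to 0.00, both with a limma-voom adjusted p of 0.9003. For Nr5a2 the interval of V4 minus TruSeq was wide, from -0.25 to 2.09.

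To compare the receptors with each other, CPM was divided by the kilobases of annotated exon. In saline livers Hnf4a was highest in TruSeq at 138 CPM per kilobase (SD 5.90, n = 3), followed by Nr1i3 at 111 (SD 19.0), Rxra at 90.4 and Nr1h4 at 73.5. The ranges of Nr1i3 and Rxra overlapped, while those of Hnf4a and Nr1i3 did not. Next came Nr1i2 at 33.0, Nr1h3 at 32.9 and Ppara at 31.3, whose ranges overlapped with their neighbors', then Nr0b2 at 17.0 and Nr5a2 at 12.9, which overlapped, and Rxrb at 6.75. After IL-1β Nr1i3 dropped from second to last of the 10 in TruSeq, at 5.26 CPM per kilobase (SD 1.01), its range overlapping that of Nr0b2 at 6.89. Hnf4a was then at 260 CPM per kilobase, above Rxra at 75.1. In Pico the order in saline livers also began with Hnf4a (136) and Rxra (89.7), followed by Nr1h4, Ppara and Nr1i3 at 58.0, 56.6 and 54.0 with overlapping ranges, and after IL-1β Nr1i3 was lowest at 3.44, its range overlapping that of Nr0b2 at 4.96. In V4 the order was different, with Nr0b2 highest in saline livers at 90.4 CPM per kilobase, Nr1h3 at 62.6, Nr1h4 at 56.9, Nr1i3 at 43.6 and Hnf4a next at 34.5. Nr5a2 was lowest in V4 in both treatments, at 0.502 and 0.962 CPM per kilobase. With the length of the longest transcript in place of all exon bases, places in the order moved by at most 2, and Nr1i3 stood first in TruSeq saline livers with a range that overlapped that of Hnf4a. By that length Nr0b2 was lowest after IL-1β in Pico and TruSeq, just below Nr1i3 at 5.10 and 7.80 CPM per kilobase, with overlapping ranges.

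**Figure D4:**
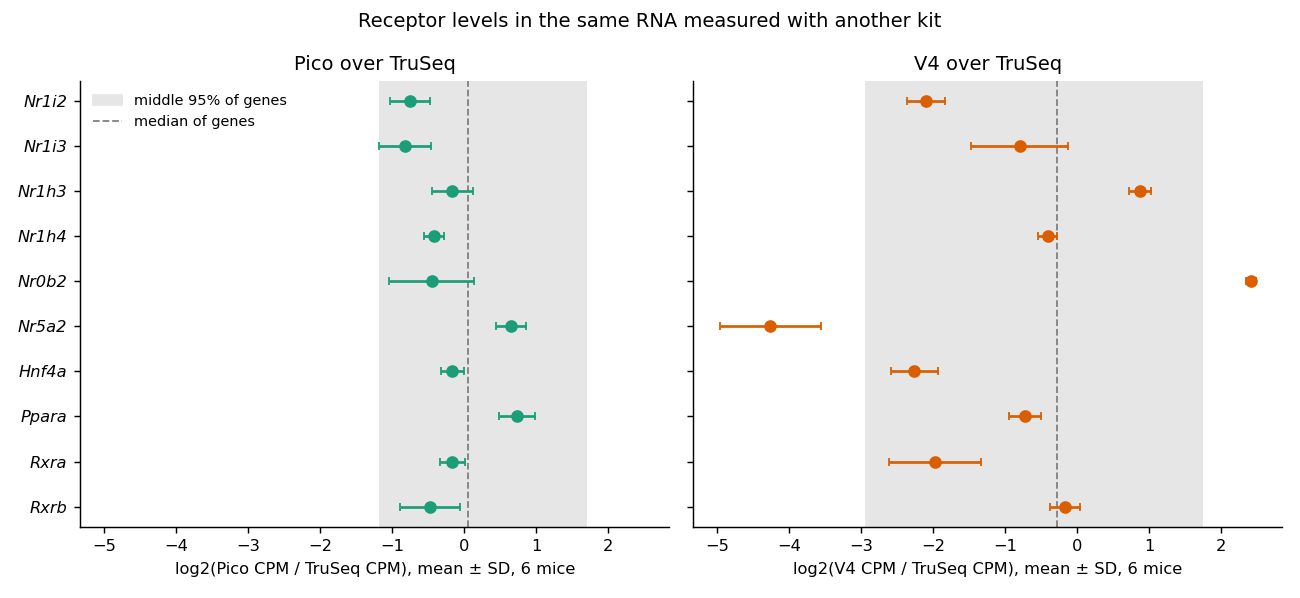
Log2 ratio of CPM in Pico or V4 to CPM in TruSeq for each of the 10 receptors, as the mean and SD over the 6 mice, with the median and the middle 95% of all genes that had a mean count of 20 or more in both of the kits compared. In V4 Nr0b2 lies at 2.41 above the middle 95% and Nr5a2 at -4.26 below it.

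The level read for a receptor in aliquots of the same RNA differed by kit. Over 10266 genes whose mean count was 20 or more in both kits, the median log2 ratio of V4 to TruSeq was -0.28, and the middle 95% of genes lay between -2.93 and 1.74. Nr0b2 was counted 2.41 ± 0.07 (SD, n = 6 mice) higher in V4 on the log2 scale, above 99.5% of genes. Nr5a2 was at -4.26 ± 0.70, with 0.127% of genes below it. Hnf4a was at -2.26 ± 0.33, Nr1i2 at -2.10 ± 0.26 and Rxra at -1.97 ± 0.64, while Nr1h3 was at 0.87 ± 0.15. Nr1i3 was at -0.80 ± 0.68, Ppara at -0.72 ± 0.22, Nr1h4 at -0.41 ± 0.13 and Rxrb at -0.17 ± 0.21. The SD over mice, which pools both treatments, was largest for Nr5a2, Nr1i3 and Rxra, and single mice ranged from -1.61 to 0.04 for Nr1i3. For Pico against TruSeq the median over 9569 genes was 0.06. There the receptors ranged from -0.82 ± 0.36 for Nr1i3 and -0.75 ± 0.28 for Nr1i2 up to 0.65 ± 0.21 for Nr5a2 and 0.74 ± 0.25 for Ppara.

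Other nuclear receptors were read from a list of 38 genes. The Pico table held 32 of them, with 2 called higher and 12 lower. V4 held 30, with 0 higher and 7 lower, and TruSeq 32, with 3 higher and 15 lower. In the order Pico, V4 and TruSeq the median log2 fold change of the list was -0.78, -0.84 and -0.70, and under TMM -0.65, -0.67 and -0.55. Vdr, the vitamin D receptor gene, was at 0 counts in the saline libraries of all 3 kits, and had 12 to 16 counts in the IL-1β libraries of TruSeq and 3 to 6 in those of Pico. It was called higher in these kits. In V4 7 counts in 1 library and 0 in the others were recorded.

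Coactivators and corepressors of nuclear receptors made up a list of 18. Pico called 2 higher and 4 lower, V4 0 and 3, and TruSeq 5 and 4, with medians of -0.21, -0.20 and -0.13 that were close to those of all genes, and under TMM -0.07, -0.03 and 0.03, so that the sign in TruSeq depended on the scaling. Ppargc1b, a coactivator of mitochondrial and lipid genes, fell from 23.9 to 2.81 CPM in Pico and from 4.31 to 0.753 CPM in TruSeq (log2 fold change -2.96 and -2.54, limma-voom adjusted p = 0.001519 and 0.0005433). It also fell in V4, where 2 of the 3 IL-1β libraries held 0 counts and the third 19. Tbl1xr1, a subunit of the NCoR corepressor complex, rose by 0.84 in TruSeq and 0.51 in Pico on the log2 scale, and was not called in V4 (0.32).

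Genes that the receptors are known to control were taken as lists from textbook knowledge, and none of their counts measures the activity of a receptor. Of 9 PXR targets 0 were called higher in any kit and 6, 4 and 7 lower in Pico, V4 and TruSeq, with median log2 fold changes of -0.66, -0.59 and -0.78. Abcc2, the canalicular exporter of bilirubin conjugates, fell by 1.31 (Pico), 1.28 (V4) and 1.26 (TruSeq) on the log2 scale, and the drug-metabolizing Cyp3a25 by 0.98, 0.95 and 1.13. Of 10 CAR targets 1 was called higher in each kit and 2, 1 and 2 were lower in Pico, V4 and TruSeq, under TMM 2, 0 and 1 with 1, 1 and 3 higher. The 2 of 10 lower in TruSeq were near the 21.8% called lower over all genes. Among genes with a mean count of 20 or more that share was 30.8%, but the list also holds genes with fewer counts. The gene called higher in every kit was Cyp2b10, the cytochrome P450 by which CAR activation is usually followed. Its mean level after IL-1β was 79.7 CPM against 19.6 CPM in saline livers in TruSeq, with 53.3 against 11.7 in Pico and 128 against 31.2 in V4. The log2 fold changes were 2.08, 2.30 and 1.99 (limma-voom adjusted p = 0.002062, 0.0001974 and 0.00901), in the opposite direction to Nr1i3 itself. Cyp2c37, another P450 of the list, fell by 0.91 in TruSeq, 0.64 in Pico and 0.86 in V4, with the V4 call lost under TMM.

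Of 10 LXR targets 1 was called higher in each kit and 4, 3 and 6 lower in Pico, V4 and TruSeq. Abcg8, a subunit of the sterol transporter into bile, fell by 1.60, 1.19 and 1.66, and Lpcat3, a phospholipid-remodeling enzyme, by 1.51, 1.60 and 1.46 on the log2 scale. The higher gene was Abca1, a cholesterol exporter, named after its values were seen, at 1.42, 1.59 and 1.52. Of 9 FXR targets counted, 1 was called higher and 3 lower in Pico and in TruSeq, and 0 in V4, and under TMM 1 was lower in each of Pico and TruSeq. Slc27a5, which conjugates bile acids with coenzyme A, fell by 0.42 in Pico and 0.37 in TruSeq and stood at -0.46 in V4 (limma-voom adjusted p = 0.0533). Both calls were lost under TMM (-0.29, adjusted p = 0.05406 in Pico, and -0.21, adjusted p = 0.101 in TruSeq). Kng1, a kininogen gene, fell by 0.33 in TruSeq and was not called in Pico (-0.21) or V4 (-0.29), and its TruSeq call was lost under TMM (-0.17, limma-voom adjusted p = 0.1455). Of 5 genes controlled by LRH-1 and SHP, 2 were called lower in each kit and 1 higher in TruSeq. The lower ones were Cyp7a1, the rate-limiting enzyme of bile acid synthesis, with log2 fold changes of -5.93, -5.71 and -5.84 in Pico, V4 and TruSeq, and Cyp8b1, which sets the share of cholic acid, at -1.69, -1.59 and -1.92. Cyp7a1 was at 4.82 CPM after IL-1β and 255 CPM after saline in TruSeq, while Nr5a2, its activator, was not called.

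Of 13 HNF4α targets 8, 4 and 8 were called lower in Pico, V4 and TruSeq and 1, 0 and 0 higher, under TMM 5, 4 and 6 lower, while Hnf4a itself was higher in Pico and TruSeq. Slc2a2, the hepatic glucose transporter, fell by 1.69, 2.25 and 2.34 on the log2 scale, and Cyp2d26, a P450, by 0.65, 0.65 and 0.71. Of 16 PPARα targets 5, 4 and 5 were called lower and 0, 2 and 3 higher in Pico, V4 and TruSeq, and under TMM 5, 3 and 4 lower and 3, 3 and 5 higher. Acot1, a cytosolic acyl-CoA thioesterase, fell by 1.91, 1.82 and 1.44 on the log2 scale. Ttr was counted both as an HNF4α target and as a hepatocyte marker, and Pltp both as an LXR and as an FXR target.

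**Figure D5:**
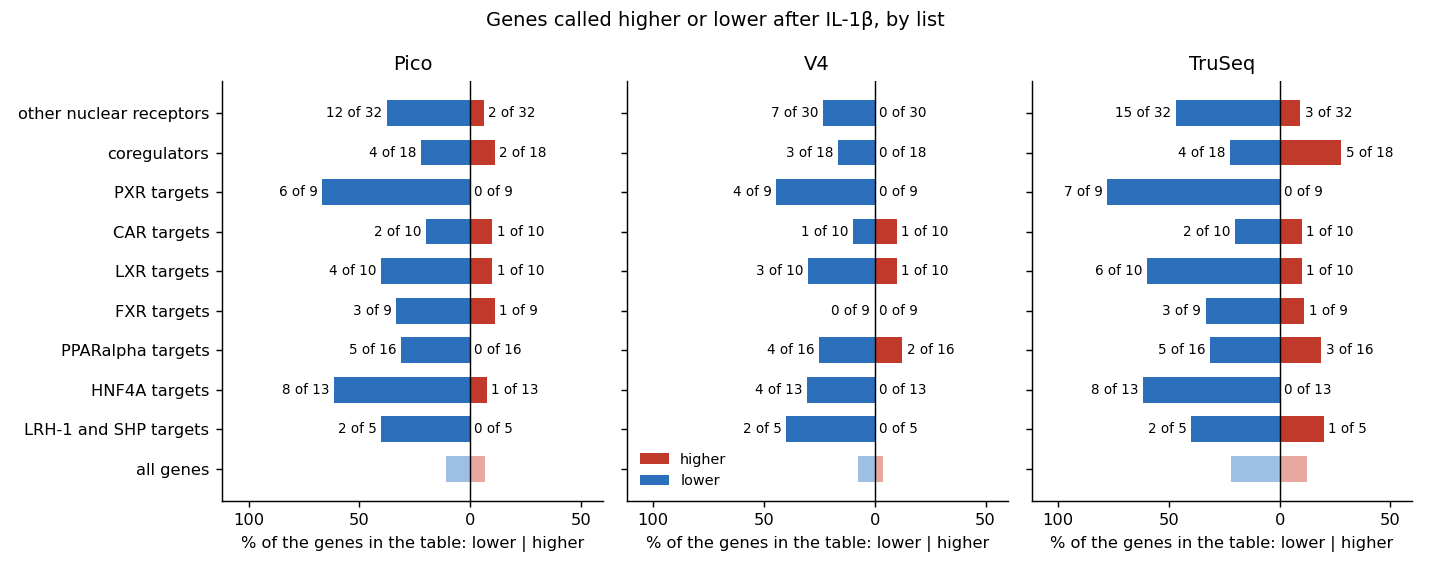
Number of genes called higher and lower after IL-1β in each kit for the lists of other nuclear receptors, coregulators and receptor targets, as a share of the genes of the list in the table, with the share over all genes as the lowest bar. Lower calls outnumber higher ones over all genes in each kit. The same holds for other nuclear receptors and for the PXR, LXR, PPARα, HNF4α and LRH-1 and SHP targets.

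Hepatocyte markers gave 2 higher and 6 lower of 8 (Pico), 2 and 3 (V4) and 2 and 4 (TruSeq), and under TMM 3, 2 and 3 were lower. The medians were -0.37, -0.30 and -0.31. The higher ones were Hpx (1.93, 1.97 and 2.19 in Pico, V4 and TruSeq), which encodes the heme-binding acute-phase protein hemopexin, and Tat (1.14, 0.98 and 1.28), a tyrosine-degrading enzyme. Endothelial markers gave 2 higher and 4 lower of 8 (Pico), 0 and 2 (V4) and 1 and 6 (TruSeq). Kdr (-2.16, -2.28 and -2.38), a VEGF receptor gene, and Clec4g (-1.40, -1.70 and -1.75) were lower in each kit. In the other direction, Lyve1 was called higher in Pico (1.65) and TruSeq (0.94), and Cdh5 in Pico (0.72). Stellate cell markers gave 3, 2 and 4 lower of 8 (under TMM 2, 1 and 4) and 0 higher, among them Colec11 (-1.67, -1.80 and -1.73) and Lrat (-1.85, -2.27 and -1.33), the retinol-esterifying enzyme, whose V4 call was lost under TMM (-2.10, limma-voom adjusted p = 0.06085). Kupffer cell markers gave 4, 2 and 5 lower of 8 (under TMM 3, 1 and 5), and 1 higher in TruSeq under both scalings. Among them Clec4f was lower in each kit (-0.74, -1.03 and -1.16), with the V4 call lost under TMM (-0.86, limma-voom adjusted p = 0.08783), and Emr1, the F4/80 gene, in TruSeq (-1.65), standing at 0.27 in Pico and -2.28 in V4. The marker called higher in TruSeq was Marco (1.30), which stood at 0.37 in Pico and 1.33 in V4 without a call. Of the neutrophil markers S100a9 rose by 5.42, 3.62 and 4.49 and reached 29.5 CPM after IL-1β in TruSeq, and Retnlg and Cxcr2 were at 0 counts in the saline libraries of Pico. Cholangiocyte markers gave 1, 0 and 2 higher and 0, 0 and 1 lower of 6 (under TMM 2, 0 and 3 higher and 0 lower), with Epcam called in Pico and TruSeq (3.43 and 1.22) and Sox9 in TruSeq (1.18). Lymphocyte markers gave 1 higher of 7 in Pico, 0 of 8 in V4 and 2 lower of 8 in TruSeq, Cd79a (-1.76) among them, at summed levels of at most 5.66 CPM. The acute-phase genes Saa3 and Lcn2 had log2 fold changes of 9.30 and 9.53 in TruSeq. The part of any of these cell markers in the receptor values was not tested.

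For each receptor, the gene with the most similar pattern over the 18 libraries was found among 8960 genes whose mean count was 20 or more in every kit, as Pearson's r of log2(CPM + 1) centered within each kit. The 18 libraries come from 6 mice and 2 treatments, so that any pair of genes that respond to the treatment has a high r. For Nr1i3 it was Mosc1 (r = 0.987), for Rxra Gna12 (r = 0.972), for Hnf4a Fndc3b (r = 0.968), for Nr1h4 D0H4S114 (r = 0.948), for Nr0b2 Cth (r = 0.944) and for Nr1h3 Cdk18 (r = 0.938). The lowest values were those of Dact2 for Nr1i2 (r = 0.897), C1qb for Ppara (r = 0.889), Psmb8 for Rxrb (r = 0.851) and Ddx23 for Nr5a2 (r = 0.802).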

How the data were processed

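Liver RNA of 6 mice was sequenced after preparation with 3 kits, giving 18 libraries. The deposited counts are whole reads per gene: per the methods, the authors aligned reads to mm9 with GSNAP, removed ribosomal reads, resampled the reads of a kit to about equal depth with PORT and counted sense reads for Pico and TruSeq and both strands for V4. The TruSeq libraries came from an earlier study, and the Pico preparation was repeated; which of its runs the table holds is not given in the sources used here. All 3 tables were normalized separately.

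Counts were fitted kit by kit with voom in limma 3.58.1 (R 4.3.3), with library totals as library sizes, over every gene above 0 in at least 1 library, with Benjamini-Hochberg adjustment and calls at an adjusted p of at most 0.05. Differences between kits were fitted as the interaction of kit and treatment. Ratios used exact two-sided permutation tests. Alternatives were TMM scaling, edgeR 4.0.16, DESeq2 1.42.0, a filter of 10 counts in 3 libraries, a joint fit, the mouse as a block and leaving out each mouse. The scripts were tested on simulated data. CPM was computed with Python 3.11.15, and levels between genes were divided by exon length of the mm9 annotation. Intervals cover the spread between these mice.

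The mouse number pairs the libraries of different kits, since each mouse gave RNA to all of them. Deviations from the group means correlated between same-mouse libraries by 0.0796 to 0.234 for Pico and V4, 0.194 to 0.446 for Pico and TruSeq and 0.168 to 0.458 for V4 and TruSeq. Between different mice the values were -0.360 to -0.0327. Deviations within a group cancel out, so these negative values follow from the positive ones and are no separate evidence. Treatments share no mice, so the comparison within a kit is unpaired.

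The receptors, the gene lists and the tests were chosen with earlier results of these data known. The text names all 10 receptors, the 2 genes of each list with the smallest adjusted p in TruSeq, and the gene most similar to each receptor. Some of the genes that this rule names are not reported here. Abca1, Cxcr2, Tomm40l, Lyve1, Cdh5 and Marco were added after their values or positions were seen.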

Additional observations from a re-analysis of the deposited data

How the results depend on the processing

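Of the 10 receptors, those called in Pico numbered 7, and 4 in a joint fit of all 18 libraries. In V4 4 were called, and 7 in the joint fit, both without and with a replicate block by mouse. The joint fit shares a variance per gene over kits of unequal spread. Chi-square per degree of freedom between libraries of a group was 21.08 to 90.65 in V4, 7.039 to 11.3 in Pico and 9.26 to 29.45 in TruSeq. Calls gained in V4 or lost in Pico by that fit are limited by this, and its called share over all genes is not reported here. Leaving out 1 mouse gave between 1 and 4 calls in V4 (1 without mouse UNT_9575 or ILB_9583) and between 3 and 6 in TruSeq (3 without UNT_9574), where 5 were called. For V4 minus TruSeq, 0 receptors were called, 1 with DESeq2 (Nr1i3), and 0 to 1 when 1 mouse was left out (Rxra without UNT_9576). With the mouse as a block, which pairs the libraries of a mouse across kits, 0 receptors were called as different between kits. The joint fit without the block gave the same calls as with it except Rxra in Pico. The filter of 10 counts in 3 libraries added Ppara in Pico and Nr1i2 in TruSeq.

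Directions changed for values that were not called. Rxrb in Pico was 0.01 with DESeq2, 0.02 with edgeR and -0.25 to 0.06 when 1 mouse was left out. Nr1i2 in V4 was 0.09 with DESeq2, 0.09 with edgeR, 0.07 with TMM and -0.23 to 0.07 with 1 mouse left out. Nr5a2 in TruSeq was 0.11, 0.11, 0.13 and -0.20 to 0.07 under the same settings, and Ppara in TruSeq 0.03, 0.03, 0.02 and -0.31 to 0.07. The difference in response of Nr5a2 between Pico and TruSeq ran from -0.21 to 0.05 with 1 mouse left out. That of Nr0b2 between V4 and TruSeq was 0.04 with DESeq2 and -0.07 to 0.02 with 1 mouse left out. With 1 mouse left out, the ratio to Rxra differed between treatments by -0.09 to 0.26 for Nr1h3 in Pico, -0.11 to 0.02 for Nr1h3 in TruSeq and -0.31 to 0.02 for Nr1h4 in Pico.

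With Hnf4a as the reference gene in place of Rxra, the differences were -0.57 for Nr1i2, -0.92 for Nr1h3, -1.08 for Nr1h4 and -0.84 for Ppara in V4, -1.18 for Nr1h3 and -1.05 for Ppara in Pico, and -1.05 for Ppara in TruSeq. A ratio also moves with its reference gene. The log2 fold change of Hnf4a was 0.48 (V4), 0.65 (Pico) and 0.91 (TruSeq), and that of Rxra -1.25, -0.58 and -0.28. Without any filter the tables gave identical values, since no gene was at 0 in every library. Counts were low for Nr5a2 in V4 (15 to 59, and 494 to 713 in TruSeq), Nr0b2 in Pico and Vdr. With 3 mice a group, the exact tests of ratios cannot pass an adjusted p of 0.05.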
